A study of Trametes coccinea with 9 samples.

Results

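Strain CIRM-BRFM 310 of *Pycnoporus coccineus*, a white-rot fungus, carries 4 genes annotated as lignin peroxidases (LiP), numbered 1431101, 859168, 1403742 and 779035, among 12690 predicted genes. They were taken here by gene number from the study's annotation of 11 class II heme peroxidases. There, a model was named LiP when homology modelling showed an exposed catalytic tryptophan, and versatile peroxidase when it also showed a manganese oxidation site. The name LiP therefore rests on predicted structure and not on measured activity, and protein sequence was not analysed here. The class also holds 4 manganese peroxidases (MnP), 2 versatile peroxidases (VP) and 1 atypical VP.

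Ligninolytic peroxidases are secreted heme enzymes that use hydrogen peroxide to oxidize lignin, the aromatic polymer that stiffens wood. LiPs take electrons from non-phenolic aromatic units through the surface tryptophan, MnPs oxidize manganese ions that diffuse into the wood and attack phenolic units, and VPs combine both sites. Hydrogen peroxide is supplied by secreted oxidases such as glyoxal oxidases and GMC oxidoreductases, so transcripts of both groups were followed.

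The monokaryotic strain was grown in shaken liquid culture, and mycelium was harvested on day 3 from 3 independent cultures per substrate, so that one genotype was tested throughout. Pine cultures received ground and sifted softwood particles of the whole trunk, bark included, at 15 g/l with 2.5 g/l maltose. Aspen cultures received Wiley-milled hardwood at 15 g/l in the same base medium, which also held maltose, and control cultures received 20 g/l maltose and no wood. Libraries were made from poly A RNA, and reads that mapped to a single place were counted per gene, at 28399534 to 38654866 counts per library. An effect of wood and an effect of less maltose cannot be told apart in the comparisons with maltose, nor can the wood species be told apart from bark and milling in the comparison of pine with aspen. In bulk RNA from a culture, fewer cells expressing a gene and less RNA per cell cannot be told apart either.

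One of the 4 LiP genes, 1431101, carried nearly all LiP transcripts on aspen. Its transcript was present at a low level on pine, among the most abundant of the fungus on aspen, and on maltose above only 12.0% of the genes tested. The other 3 genes stayed at low levels on the 3 substrates, and none of them was called between substrates by the test across all genes. All 4 genes passed the minimum mean of 5 raw counts over the 9 libraries, which 11130 genes met.

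The raw counts of LiP 1431101 were 266, 340 and 495 in the pine cultures and 59934, 92235 and 42987 in the aspen cultures, against 30, 32 and 36 in the maltose cultures. Scaled to CPM (raw counts per 1000000 counts of a library, with edgeR's TMM factors for library composition) these were levels of 7.67, 11.6 and 19.9 on pine, 1714, 2577 and 1272 on aspen, and 0.889, 0.885 and 0.947 on maltose. The 3 groups did not overlap, and the lowest aspen culture lay far above the highest pine culture. Mean levels were 13.1 ± 6.24 CPM on pine, 1854 ± 664 CPM on aspen and 0.907 ± 0.0348 CPM on maltose (SD, n = 3 each). The 3 pine libraries together held 1101 counts of this gene, a sum with an exact Poisson 95% interval of 1037 to 1168. The aspen libraries held 195156 counts (194291 to 196024), and the maltose libraries 98 (79.6 to 119). These intervals cover counting error only and are narrower than they should be, because a sequenced fragment usually adds both of its reads to a count.

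Ranked by mean CPM among the 11130 genes, 1431101 stood at place 6366 on pine, 56 on aspen and 9797 on maltose. The aspen level took 0.194% of all counts, and the median gene had 19.1 CPM on aspen. Divided by the length of the annotated gene, introns included, the pine level was 6.70 ± 3.20 CPM per kb (SD, n = 3), under the median gene on pine, which had 9.82 CPM per kb. The aspen level was 951 ± 340 CPM per kb (SD, n = 3), at place 82 of the 11123 genes with a length.

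**Figure D1:**
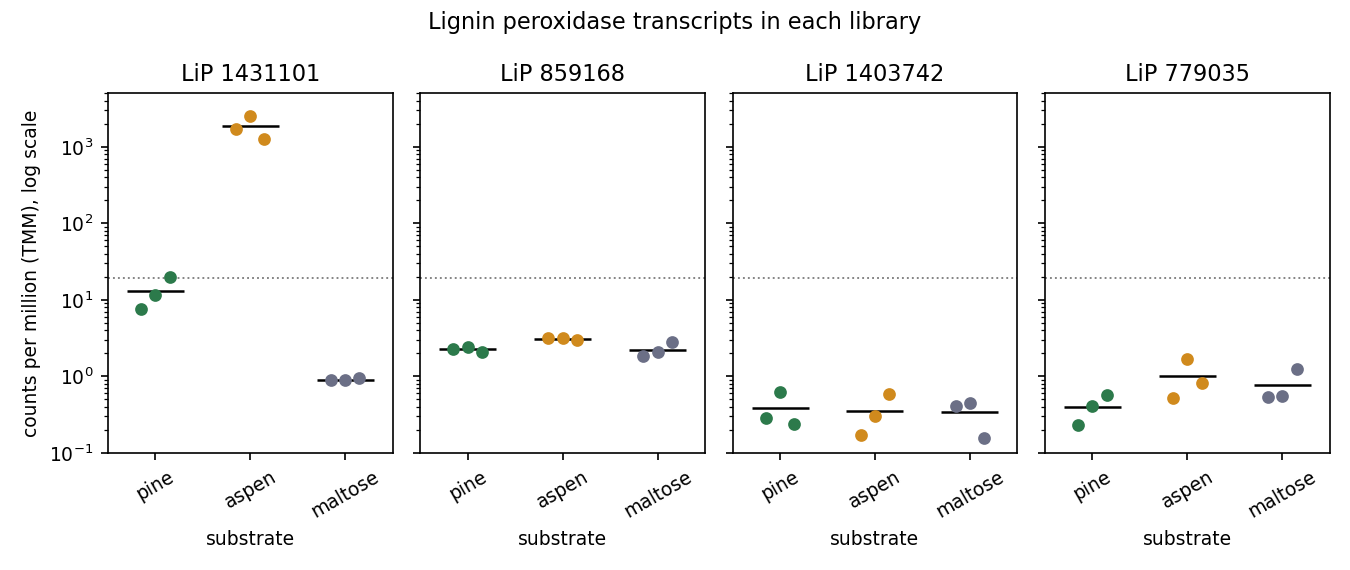
Transcript level of each LiP gene in each library, in TMM CPM on a log axis, for pine, aspen and maltose cultures (points, 1 per culture; black bars, means of 3). The dotted line is the median level of the 11130 genes on aspen, 19.1 CPM. LiP 1431101 lies at 7.67 to 19.9 CPM on pine and at 1272 to 2577 CPM on aspen, while the other 3 genes stay under that line on every substrate.

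By edgeR's quasi-likelihood test, fitted to all 9 libraries with Benjamini-Hochberg adjustment over the 11130 genes, the transcript of 1431101 was more abundant on pine than on maltose by 3.84 on the log2 scale (SE 0.39, 14.3-fold, adjusted p = 3.7e-06). On aspen it was more abundant than on maltose by 10.99 (SE 0.51, 2036-fold, adjusted p = 1.1e-08). The approximate 95% interval of the pine fold change was 7.97 to 25.7, and that of the aspen fold change was 953 to 4347. Both comparisons use the same 3 maltose cultures. Compared directly, the pine level was lower than the aspen level by a log2 fold change of -7.15 (SE 0.43, 142-fold, adjusted p = 5.5e-07). The gap between the woods is therefore larger than the spread between cultures of either wood.

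Few genes changed more. Among the 11130 genes, 2 had a larger rise on aspen over maltose than 1431101, namely 448186 and 1468135, and 1 gene, 1466450, had a larger fall. All 3 were picked out after their values were seen. Between pine and aspen, the 1 gene with a more negative value was 1105309, with 0 counts in each pine culture and 68, 4 and 2 counts in the aspen cultures, so that 1 aspen library set its value. On pine over maltose, 291 genes had a higher value than 1431101.

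LiP 859168 was the second most abundant LiP gene on both woods and the first on maltose when levels were set per length. It had 80, 70 and 52 raw counts on pine and 111, 115 and 101 on aspen, against 62, 76 and 106 on maltose. In CPM these were 2.31, 2.39 and 2.09 on pine, 3.18, 3.21 and 2.99 on aspen, and 1.84, 2.10 and 2.79 on maltose. The 3 aspen cultures lay above all the others, by a narrow margin over maltose culture 3, while pine and maltose cultures overlapped. The log2 fold change was 0.01 (SE 0.27, adjusted p = 0.97) for pine against maltose and 0.48 (SE 0.27, adjusted p = 0.158) for aspen against maltose by edgeR. For pine against aspen it was -0.46 (SE 0.27, adjusted p = 0.216), with an approximate 95% interval of -1.05 to 0.12. The test therefore resolved no change of this gene on either wood.

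LiP 1403742 had the lowest level per length of the 4 genes on aspen and maltose. Its raw counts were 10, 18 and 6 on pine and 6, 11 and 20 on aspen, against 14, 16 and 6 on maltose. The groups overlapped fully, at 0.241 to 0.616 CPM on pine, 0.172 to 0.592 CPM on aspen and 0.158 to 0.443 CPM on maltose. Log2 fold changes were 0.18 (SE 0.62) for pine against maltose, 0.08 (SE 0.62) for aspen against maltose and 0.10 (SE 0.62) for pine against aspen, with adjusted p-values from 0.819 to 0.927 by edgeR. At 34 to 37 counts per substrate, the approximate 95% interval for aspen against maltose ran over fold changes of 0.419 to 2.67. A change within that range was therefore not excluded at this depth.

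LiP 779035 had 8, 12 and 14 raw counts on pine and 18, 60 and 28 on aspen, against 18, 20 and 48 on maltose. In CPM these were levels of 0.231 to 0.563 on pine, 0.515 to 1.68 on aspen and 0.533 to 1.26 on maltose. Aspen and maltose cultures overlapped, and the highest pine culture lay above the lowest culture of each other substrate. The pine level gave a log2 fold change of -1.35 (SE 0.58) against aspen, with an unadjusted p of 0.0364 and an adjusted p of 0.0947 by edgeR, which misses the threshold. Against maltose the values were -0.99 for pine (SE 0.58, adjusted p = 0.162) and 0.36 for aspen (SE 0.54, adjusted p = 0.601). The aspen mean leaned on culture 2, which held 60 of the 106 aspen counts, and without that culture the aspen value against maltose was -0.22.

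As a family, 1 of 4 LiP genes was called higher on pine than on maltose and 0 lower, beside 29.1% of the 11130 genes called higher and 28.8% called lower. On aspen over maltose, 1 of 4 was called higher and 0 lower, beside 26.3% and 24.9% of all genes. In pine against aspen, 0 of 4 were called higher and 1 lower, beside 15.2% and 15.1%. With 4 genes, a single call in a comparison does not set the family apart from that background, and what stood out was the size of the change of 1431101. The median log2 fold change of the 4 genes was 0.10 on pine and 0.42 on aspen over maltose and -0.91 for pine against aspen, where the medians of all genes tested were -0.03, -0.02 and -0.05.

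Both woods together were also set against maltose for each gene alone. For 1431101, the mean of the 6 wood libraries was 934 CPM against 0.907 CPM in the 3 maltose libraries, with p = 0.0238 by an exact two-sided permutation test, the smallest value that 84 assignments allow. The same exact permutation test gave p = 0.238 for 859168, 0.833 for 1403742 and 0.833 for 779035. These 4 tests pool pine and aspen, between which the level of 1431101 differed.

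The order of levels was aspen, pine, maltose for 1431101, with each neighbouring pair apart beyond the spread between cultures. For 859168 the order of means was the same, for 1403742 it was pine, aspen, maltose, and for 779035 aspen, maltose, pine. No neighbouring pair of these 3 genes was separated by the test. Per kb of gene, the LiP genes ranked 1431101, 859168, 779035, 1403742 on aspen, at 951, 1.85, 0.551 and 0.223 CPM per kb. On maltose, 859168 led at 1.32 CPM per kb, before 1431101 at 0.465, 779035 at 0.429 and 1403742 at 0.211 CPM per kb.

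The make-up of the class II peroxidase transcripts differed by substrate. In the pine libraries, 1431101 alone gave 1.60%, 0.849% and 0.815% of the raw counts of the 11 genes, with exact binomial 95% intervals within 0.745% to 1.81%. In the aspen libraries its share was 45.3%, 45.0% and 39.5% (intervals within 39.2% to 45.5%), and in the maltose libraries 0.569%, 0.537% and 0.857% (within 0.367% to 1.18%). These intervals also cover counting error only and are too tight for the same reason as those of the counts. Within the LiP genes, 1431101 held 73.1% to 87.3% of the counts on pine and 99.7% to 99.8% on aspen, against 18.4% to 24.2% on maltose. Class II counts as a whole amounted to 429 to 2138 CPM of the library total on pine and 3330 to 6040 CPM on aspen, against 141 to 170 CPM on maltose, where the atypical VP 1438352 gave 80.2% to 92.8% of them. MnP genes took 94.8% to 98.3% of the class on pine and 54.4% to 60.1% on aspen.

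**Figure D2:**
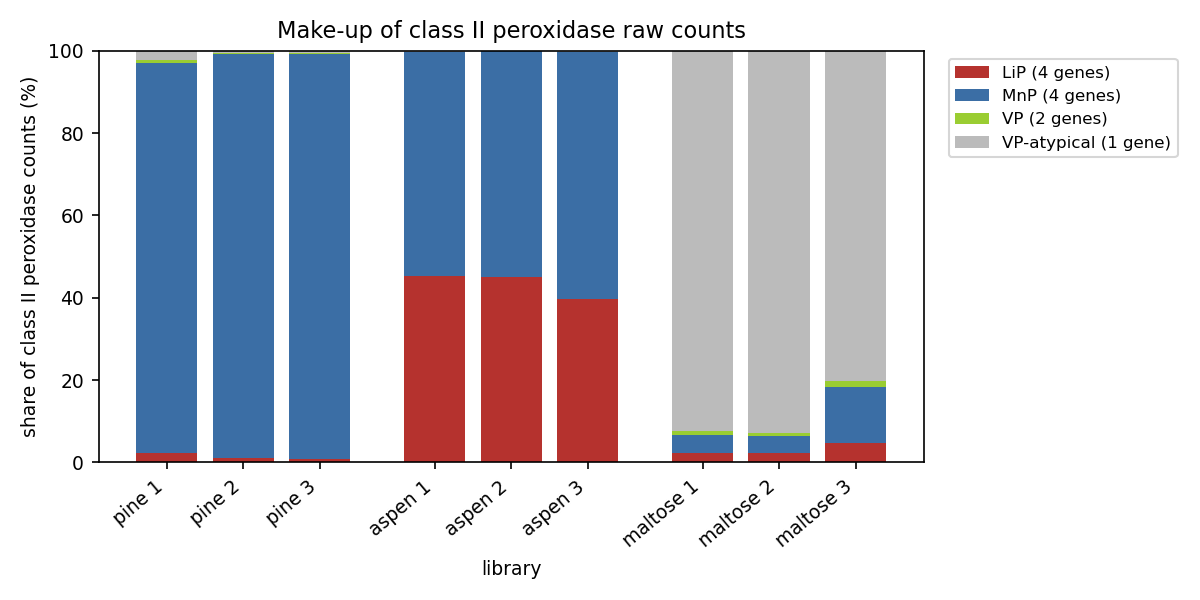
Share of the raw counts of the 11 class II peroxidase genes that fell on LiP, MnP, VP and atypical VP genes, in percent, for each pine, aspen and maltose library. LiP genes take 0.934% to 2.19% of the bar in the pine libraries and 39.6% to 45.4% in the aspen libraries, against 2.35% to 4.66% in the maltose libraries.

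Set beside the other peroxidases, 1431101 shared its high level on aspen alone with 1 MnP and not with the 2 most abundant on pine. MnP 1464049 had 2.68, 2.53 and 4.50 CPM on pine and 381, 361 and 444 CPM on aspen, against 1.84, 2.02 and 4.21 CPM on maltose. Its pine level was lower than its aspen level by a log2 fold change of -6.94 (SE 0.39, adjusted p = 2.6e-07 by edgeR), while pine and maltose were not apart (0.26, SE 0.32, adjusted p = 0.519). MnP 1468611, by contrast, was abundant on both woods, with 1032 ± 716 CPM on pine and 1672 ± 569 CPM on aspen against 1.35 ± 0.470 CPM on maltose (SD, n = 3 each). Its pine-against-aspen value of -0.70 (SE 0.45) did not pass the test (adjusted p = 0.262), nor did the 0.24 (SE 0.54) of MnP 1436321 (adjusted p = 0.764).

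For each count of MnP 1468611 there were 0.0209, 0.0124 and 0.0111 counts of LiP 1431101 in the pine libraries, against 1.19, 1.11 and 1.01 in the aspen libraries. In the maltose libraries, where both genes had few counts, the ratio was 1.07, 0.59 and 0.55, so a ratio near 1 was not particular to aspen. Among the aspen cultures this ratio varied far less than either gene's own level, since culture 2 was the highest for both genes. Per kb, 1468611 had 1191 CPM on aspen and 1431101 had 951 CPM, with SDs of 405 and 340. Within each aspen library, where both genes share the culture, the level of 1431101 per kb was 0.859, 0.799 and 0.728 times that of 1468611. On that scale, which uses gene length with introns, 1431101 was the lower in 3 of 3 cultures, and by counts the higher in 3 of 3. Neighbouring MnP 1464049 was lower, at 284 ± 31.1 CPM per kb (SD, n = 3).

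The remaining class members stayed low or moved otherwise. VP 1468768 rose by 1.55 on pine and 1.05 on aspen over maltose on the log2 scale, with means of 2.72 and 1.91 CPM against 0.917 CPM. VP 1469331, at 1.69 CPM on pine and 1.10 CPM on aspen against 0.552 CPM on maltose, was called on pine (1.61, adjusted p = 0.00486 by edgeR) and not on aspen (1.00, adjusted p = 0.0611). MnP 1369658 was lower on pine than on aspen by -1.42 (adjusted p = 0.029) and not called against maltose. The atypical VP 1438352 and the cytochrome c peroxidase (CCP) 1449695, an intracellular class I enzyme that disposes of hydrogen peroxide, fell on both woods, to 10.6 and 47.8 CPM on pine and 6.87 and 16.0 CPM on aspen against 129 and 492 CPM on maltose.

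Over the 7 class II genes other than LiP, 4 were called higher and 1 lower on pine over maltose, beside 29.1% and 28.8% of all genes, and 4 higher and 1 lower on aspen, beside 26.3% and 24.9%.

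**Figure D3:**
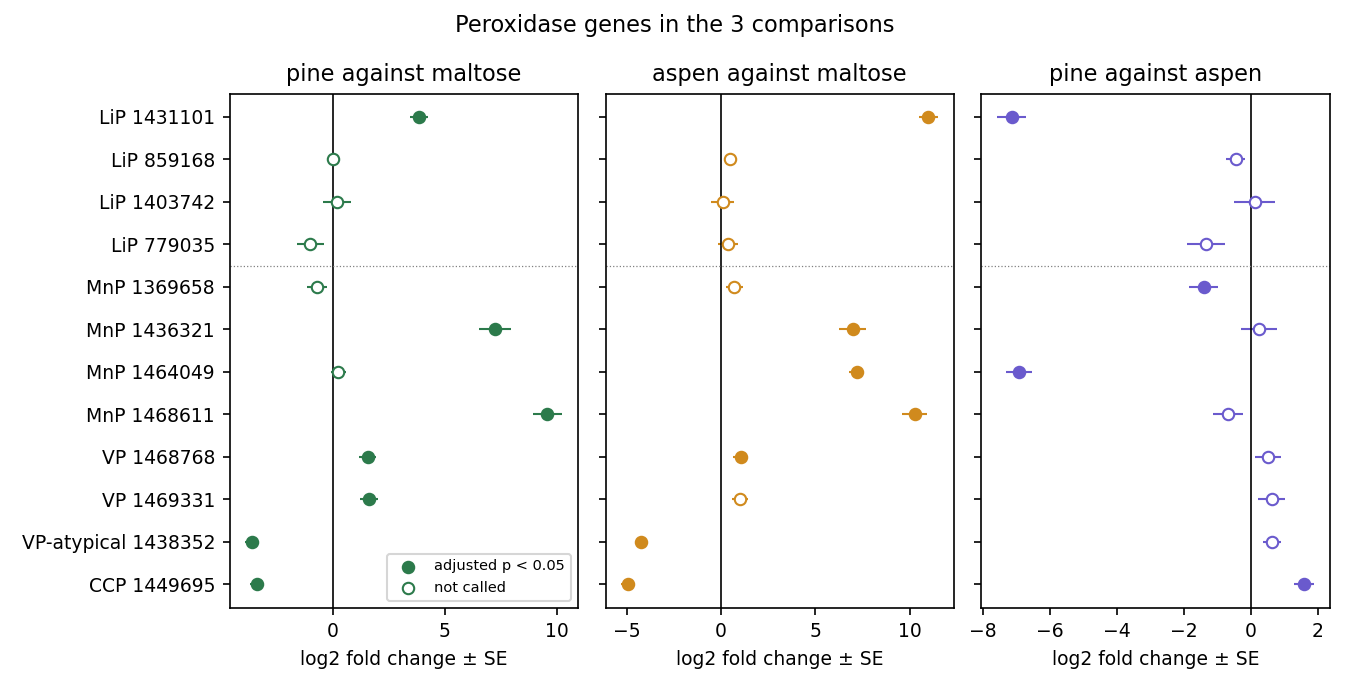
Log2 fold change with its SE for the 4 LiP genes (above the dotted line) and 8 other peroxidase genes in pine against maltose, aspen against maltose and pine against aspen. Filled points passed an adjusted p of 0.05 and open points did not. LiP 1431101 stands at 3.84, 10.99 and -7.15, and MnP 1464049 is the nearest to it in pine against aspen, at -6.94.

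Position linked 3 of the 4 genes. In the gene table of assembly Pycco1, which matched 12680 of the gene numbers but gives no scaffold names, MnP 1464049 (start 614049, end 615441), LiP 1431101 (616943 to 618892), LiP 1403742 (620477 to 622076) and LiP 779035 (624628 to 626453) followed each other with no other gene between them. The 4 peroxidase genes spanned 12405 bp, and the gaps between them were 1501, 1584 and 2551 bp. LiP 859168 (230511 to 232204) lay elsewhere in the genome, between genes 1479994 and 859196. CCP 1449695 lay 39582 bp beyond the end of 779035, with 17 genes in between.

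Along this run the transcripts did not move together. The first 2 genes, MnP 1464049 and LiP 1431101, were the ones with high aspen levels, at 395 and 1854 CPM. The next 2, LiP 1403742 and LiP 779035, had 0.357 and 1.01 CPM on aspen. Only 1584 bp from a gene with 195156 aspen counts, LiP 1403742 therefore had 37. Reads were counted only where they mapped to a single place, and a loss of reads to similar gene copies was not checked. On pine, 1431101 rose over maltose and its neighbour 1464049 was not called; the difference between the 2 genes was not tested.

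Genes bordering the run changed much less. Gene 1382876, before the MnP, had 158 CPM on pine and 163 CPM on aspen against 119 CPM on maltose, and was not called between the woods (-0.05, SE 0.18). Gene 1431103, after 779035, had 50.0 CPM on pine and 75.7 CPM on aspen against 32.2 CPM on maltose, and was lower on pine than on aspen by -0.60 (SE 0.21, adjusted p = 0.0471 by edgeR). Around LiP 859168, gene 1479994 had a pine-against-aspen value of 0.59 (SE 0.19, adjusted p = 0.0304), and gene 859196 was not called, at 0.836 CPM on pine and 1.32 CPM on aspen. The files give these genes no product names.

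**Figure D4:**
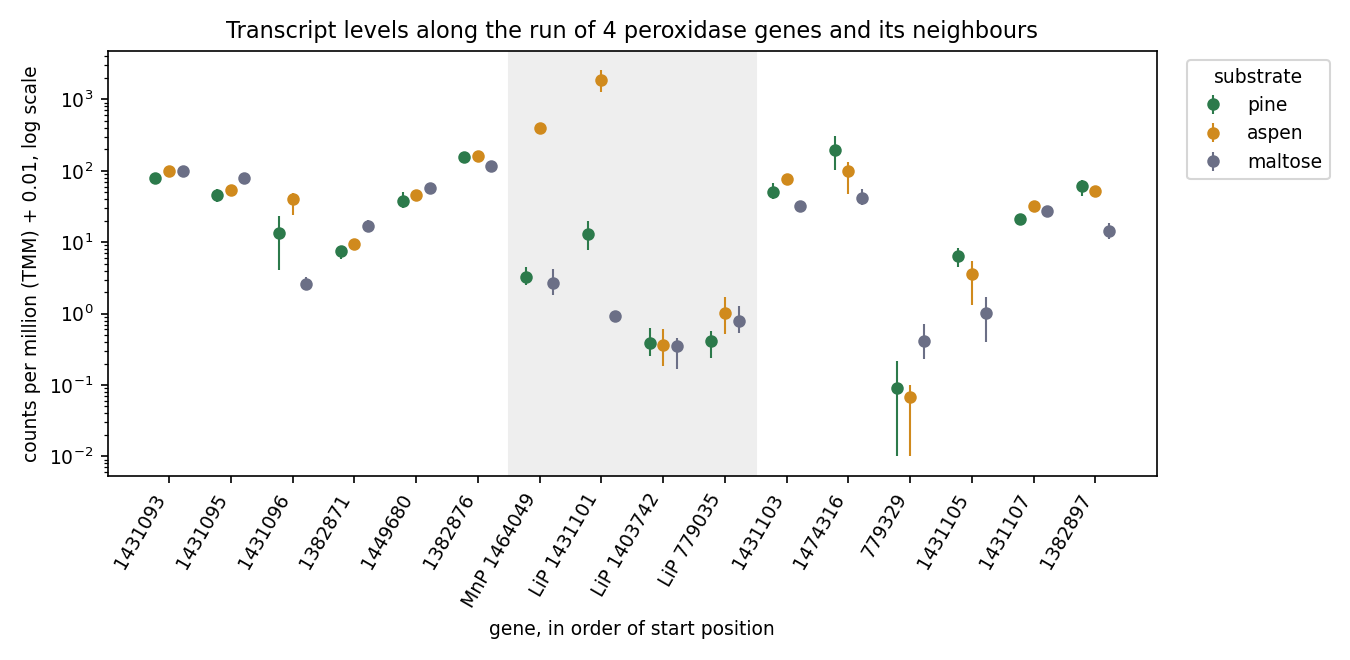
Mean transcript level (points) and range over the 3 cultures (lines), in TMM CPM plus 0.01 on a log axis, for the 4 adjacent peroxidase genes (shaded) and the 6 genes on each side in order of start position, on pine, aspen and maltose. MnP 1464049 and LiP 1431101 stand at 395 and 1854 CPM on aspen, while LiP 1403742 and LiP 779035 lie at or near 1 CPM or under it on every substrate.

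The genes whose levels followed 1431101 most closely over the 9 libraries, by Pearson's r of log2(CPM + 1), were 1377160 (r = 0.998), 1448556 (r = 0.993) and 1436628 (r = 0.992). These correlations are descriptive, since the 9 points fall into 3 substrates. Gene 1377160, annotated by the study as a CE1 carbohydrate esterase with a cellulose-binding module, had 7.72 ± 1.45 CPM on pine and 339 ± 70.9 CPM on aspen against 1.32 ± 0.327 CPM on maltose (SD, n = 3 each). Gene 1448556, whose function the study lists as unknown, had 11.1 CPM on pine and 1425 CPM on aspen against 2.10 CPM on maltose. MnP 1464049 came at place 58 of 11129 genes with r = 0.963, whereas LiP 1403742 had r = -0.02 and LiP 779035 had r = 0.37.

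The genes closest to the other 3 LiP genes had lower values of r, which at the low counts of these LiP genes is no more than a description. For 859168 these were 1436087 (r = 0.954), 1466903 (r = 0.948) and 1428175 (r = 0.943), for 1403742 they were 1378306 (r = 0.933), 1437428 (r = 0.890) and 1430106 (r = 0.869), and for 779035 they were 1458005 (r = 0.913), 997858 (r = 0.913) and 977164 (r = 0.906).

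The study links 4 families, with 24 genes here, to production of hydrogen peroxide, which could feed a peroxidase. Genes were taken by family, and the activity of each was not measured. On pine over maltose 18 were called higher and 4 lower, beside 29.1% and 28.8% of all genes. On aspen 17 were higher and 4 lower, beside 26.3% and 24.9%. Between pine and aspen 5 were higher and 7 lower, beside 15.2% and 15.1%, with a median log2 fold change of -0.17 beside -0.05 for all genes. The glyoxal oxidases of AA5_1, which make hydrogen peroxide from small aldehydes, had 2 higher and 3 lower members on pine against aspen, beside the same 15.2% and 15.1%. The 2 higher ones, named after their values were seen, were the most abundant of the family: 1357891 had 3344 CPM on pine and 1585 CPM on aspen, and 1367686 had 2322 CPM on pine and 690 CPM on aspen. Of the lower ones, 1454649 had 18.4 CPM on pine and 63.6 CPM on aspen against 0.911 CPM on maltose, and 1376269 had 29.7 CPM on pine and 124.6 CPM on aspen against 1.57 CPM on maltose. Both were lower on pine than on aspen, by -1.79 and -2.07 (adjusted p = 0.00551 and 0.0103 by edgeR). The remaining lower member, 1480943, also named after its values were seen, had 86.8 CPM on pine and 547 CPM on aspen. It had 7.72 CPM on maltose, and its pine-against-aspen value was -2.66 (adjusted p = 0.00566 by edgeR). The AA3_3 alcohol oxidase 1368318 had 1161 CPM on pine and 2055 CPM on aspen against 4.52 CPM on maltose and was not called between the woods, and 1465271 rose by 4.29 and 4.96 over maltose. The AA3_2 oxidoreductase 1429888 rose by 5.46 on pine and 6.88 on aspen, and 1465734 by 3.99 and 3.35.

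Between the woods these genes went both ways. The AA3_4 pyranose oxidase 1471985 had 4620 CPM on pine and 958 CPM on aspen against 741 CPM on maltose, and was higher on pine than on aspen by 2.27 (adjusted p = 0.00141 by edgeR), opposite in direction to 1431101, while 1440372 had 132 CPM on pine and 51.8 CPM on aspen and was not called between the woods. Of the 5 laccases (AA1_1), copper oxidases that act on phenols without hydrogen peroxide, 4 fell and 0 rose on each wood, where 28.8% of all genes fell on pine and 24.9% on aspen. Laccase 1434777 had 30.3 CPM on pine and 4.62 CPM on aspen against 2476 CPM on maltose, and 1363242 had 2.50 and 3.31 CPM against 176 CPM.

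Read trimming differed between libraries, since by the study's library table pine culture 2 and aspen cultures 1 and 3 were trimmed to a longer length before alignment. Within the libraries of longer reads, 1431101 had 11.6 CPM in 1 pine culture and 1493 CPM in 2 aspen cultures, a log2 ratio of -7.00. Within those of shorter reads it had 13.8 CPM in 2 pine cultures and 2577 CPM in 1 aspen culture, a ratio of -7.55. The fit to all libraries gave -7.15. Each class held only 1 culture of 1 of the woods, so these ratios are descriptive. All 3 maltose libraries had shorter reads, so trimming and substrate are partly mixed in both comparisons with maltose.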

How the data were processed

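The authors mapped trimmed paired reads with TopHat2 to the genome of the strain, with only unique mapping allowed, and counted them per gene with HTSeq. Whether the counting used strand is not given in the sources used here. The deposited raw counts are whole numbers for 12690 genes. The deposited normalized counts, a signal made by the authors with DESeq, equal the raw counts times 1 constant per library (0.99 to 1.59) for 11202 genes. Both reads of a pair were counted, and odd counts made up only 18.0% to 28.0% of counts from 1 to 49.

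The raw counts were analysed with edgeR 4.0.16 in R 4.3.3. Genes with a mean raw count of at least 5 over the 9 libraries were kept (11130). TMM factors were 0.835 to 0.897 on pine, 1.03 to 1.05 on aspen and 1.03 to 1.27 on maltose. One quasi-likelihood model with substrate as the group was fitted to all 9 libraries. Calls were made at 0.05 after Benjamini-Hochberg adjustment over the 11130 genes. SEs were derived from the log2 fold change and its F statistic and are approximate, as are intervals made from them. The fit was tested on simulated counts in which far fewer genes changed than were called here. That test therefore does not show how the scaling holds with so many changed genes. Permutation tests used SciPy 1.17.1.

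The LiP genes and the gene lists were chosen with earlier results of these data known. Besides the class II peroxidases and the CCP, genes were named by rule: up to 2 called members per oxidase or laccase family with the largest change on pine, the 3 genes most like each LiP gene in pattern, and the nearest gene on each side. Alternatives were DESeq2 1.42.0 (its size factors, or its Wald test), no filter or filterByExpr, only the 6 libraries compared, a replicate block, trim class as a term, leaving out each culture, and other scales of the level. A comparison of protein or promoter sequences was not made here.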

Additional observations from a re-analysis of the deposited data

Results flagged for a closer look

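The effect of wood over the same 3 maltose cultures differed between pine and aspen, by the direct contrast in edgeR's quasi-likelihood model, for 4 of the 12 peroxidase genes, 1 higher and 3 lower on pine. That count is near the share over all genes tested, 15.2% higher and 15.1% lower, so it does not set the peroxidases apart. The pine-against-aspen log2 difference was -7.15 for LiP 1431101 and -6.94 for MnP 1464049, its neighbour in the genome, each lower in 3 of 3 pine cultures than in any aspen culture. It was -1.42 for MnP 1369658, also without overlap, and 1.57 for CCP 1449695, which was less reduced on pine than on aspen.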

How the results depend on the processing

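LiP 1431101 was called in the same direction under each of the 13 alternatives of each comparison. Its log2 fold change ranged from 3.40 to 4.11 for pine against maltose, from 10.68 to 11.29 for aspen against maltose and from -7.59 to -6.84 for pine against aspen, with adjusted p-values of at most 7.8e-05, 8.1e-07 and 5.0e-05. LiP 859168, 1403742 and 779035 were called under none of the alternatives run, and the DESeq2 Wald test gave no adjusted p for 1403742 in pine against aspen. Several of their small values changed sign. With trim class as a term, 1403742 had -0.15 for pine and -0.44 for aspen against maltose. Leaving out 1 culture at a time moved 859168 between -0.12 and 0.20 for pine against maltose, 1403742 between -0.34 and 0.43 for pine against maltose, between -0.48 and 0.41 for aspen against maltose and between -0.41 and 0.67 for pine against aspen, and 779035 between -0.22 and 0.88 for aspen against maltose. Without TMM factors, mean levels moved to 1.01 CPM for 1431101 on maltose, 1.97 CPM for 859168 on pine and 3.25 CPM for 859168 on aspen, and the small difference of wood and maltose for 1403742 changed sign there (exact permutation p = 0.905) and on raw counts (p = 1.0). The authors' normalized counts moved no level by more than its SD.

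Calls over all genes in pine against aspen moved most when a culture was left out, between 1056 and 1985 higher and between 1102 and 2196 lower, against 1692 and 1676 with all 9 libraries. The lowest counts came without aspen culture 1 (1056 higher) and without pine culture 2 (1102 lower). Same-numbered cultures deviated together weakly at most (r from -0.05 to 0.31 over 9 pairs). Pairs of different number had r from -0.21 to 0.22. The numbers were not taken to pair cultures, though a shared effect of replicate number was not excluded. With a replicate block, 3323 genes were higher on pine and 3065 on aspen over maltose and 1896 higher in pine against aspen, and no call of a LiP gene changed. Depth limits the 2 LiP genes with 34 to 106 counts per substrate, whose intervals span changes of several fold.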
